A study of Mus musculus with 9 samples.

Results

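Imprinted genes that regulate growth were followed through the 9 RNA sequencing libraries of the series. The 10 genes were H19, Meg3, Rian, Mirg, Peg3, Plagl1, Dlk1, Grb10, Cdkn1c and Mest. They were taken by gene symbol from the deposited table and make up 10 of its 26202 genes. All 10 were found.

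The cells were ATDC5, a mouse chondrogenic line in which cartilage formation is studied in culture. Growth was in DMEM/F-12 with fetal bovine serum, and all 3 groups then received ascorbate, beta-glycerophosphate and insulin-transferrin-selenium, the medium in which the treatments were given. The groups were Control, Acetate and Ethanol, with 3 libraries each, made with a stranded Illumina mRNA kit. Ethanol is oxidised in the body by way of acetaldehyde to acetate. The stated question was whether acetate can carry effects of ethanol on chondrocyte differentiation. The sources used here do not give the doses or times of the treatments, or what the controls received. Every library comes from 1 cell line in culture, and nothing in the labels ties a replicate to its own culture. The p-values therefore rest on a spread between samples that may be technical.

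An imprinted gene is transcribed mainly from the copy inherited from 1 parent, and the choice is held by DNA methylation at control regions set in the germ line. Many imprinted genes act on fetal growth: as a broad pattern, paternally expressed genes such as Igf2, Mest, Plagl1, Peg3 and Dlk1 promote growth, and maternally expressed genes such as Cdkn1c, H19 and Grb10 restrain it. In the growth plate, Cdkn1c is known as a brake that lets chondrocytes leave the cell cycle before they enlarge. The libraries sum the RNA of both parental copies, so which copy was read was not measured.

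Several members are hosts of microRNAs or carry CpG-rich starts, and the sequences that bear on the results below are shown here from RefSeq for GRCm38.p6. H19 holds the hairpin of miR-675, Mest that of miR-335, and the 26 mature microRNAs matched inside Mirg include a pair from different hairpins with the same seed. Capitals mark the seed, bases 2 to 8 from the 5′ end, and an mRNA library does not measure these mature forms.
mmu-miR-675-5p: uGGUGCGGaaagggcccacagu
mmu-miR-675-3p: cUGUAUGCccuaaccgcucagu
mmu-miR-335-5p: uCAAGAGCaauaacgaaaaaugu
mmu-miR-335-3p: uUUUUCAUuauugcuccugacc
mmu-miR-453: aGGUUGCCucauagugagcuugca
mmu-miR-496a-5p: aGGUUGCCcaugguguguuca

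Promoters were matched for 8 of the 10 genes, as 12 windows of the 250 bases before an annotated start. Windows of Grb10, Plagl1 and Mest are printed because these 3 genes stood lower in every treated library than in every control library, which 8.14% of all tested genes did with acetate and 23.3% with ethanol. The first window of Meg3 is shown because that gene had almost no reads. Capitals mark CpG, the site of DNA methylation in mammals. The windows lie at chr11:12037421-12037670 (Grb10 a, minus strand), chr11:12027972-12028221 (Grb10 b, minus strand), chr10:13090582-13090831 (Plagl1, plus strand), chr6:30737800-30738049 (Mest, plus strand) and chr12:109540746-109540995 (Meg3, plus strand).
Grb10 a: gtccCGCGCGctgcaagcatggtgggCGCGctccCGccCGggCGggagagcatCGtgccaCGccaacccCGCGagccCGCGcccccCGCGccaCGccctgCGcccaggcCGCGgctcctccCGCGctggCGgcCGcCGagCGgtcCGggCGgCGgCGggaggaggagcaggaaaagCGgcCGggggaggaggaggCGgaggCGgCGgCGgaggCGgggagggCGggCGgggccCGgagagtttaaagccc
Grb10 b: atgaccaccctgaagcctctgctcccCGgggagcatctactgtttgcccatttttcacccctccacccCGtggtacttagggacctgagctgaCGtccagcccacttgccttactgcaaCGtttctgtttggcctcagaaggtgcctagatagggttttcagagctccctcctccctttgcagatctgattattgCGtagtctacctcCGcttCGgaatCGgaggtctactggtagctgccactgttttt
Plagl1: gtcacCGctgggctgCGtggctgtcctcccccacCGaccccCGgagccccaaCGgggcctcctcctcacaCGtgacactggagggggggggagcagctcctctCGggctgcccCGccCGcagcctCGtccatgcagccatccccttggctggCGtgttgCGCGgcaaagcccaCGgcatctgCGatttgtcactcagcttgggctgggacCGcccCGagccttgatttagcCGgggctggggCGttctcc
Mest: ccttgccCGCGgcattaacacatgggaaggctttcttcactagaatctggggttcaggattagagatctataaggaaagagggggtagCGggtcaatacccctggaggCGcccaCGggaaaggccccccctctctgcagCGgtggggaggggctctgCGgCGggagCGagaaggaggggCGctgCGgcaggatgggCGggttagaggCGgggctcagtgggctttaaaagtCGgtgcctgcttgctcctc
Meg3: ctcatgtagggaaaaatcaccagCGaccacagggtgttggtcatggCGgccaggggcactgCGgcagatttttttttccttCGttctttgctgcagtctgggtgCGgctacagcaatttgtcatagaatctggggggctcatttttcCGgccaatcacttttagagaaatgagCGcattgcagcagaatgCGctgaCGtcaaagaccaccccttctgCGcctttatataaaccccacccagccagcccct

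Over 32851 mouse promoter windows of this length the median was 6 CpG, with quartiles of 2 and 16. The window Grb10 a held 40, far above the upper quartile, while the other Grb10 window held 8. The bases just downstream of Grb10 a were not found in a GENCODE transcript of the gene, unlike those of the other windows shown. This start was therefore not borne out there. Plagl1 held 19 and the Mest window shown 14. Of the other Mest windows, the one at chr6:30737803-30738052 held 14 as well, and the one at chr6:30733256-30733505 held 7, close to the median. The almost silent Meg3 held 10 in the window shown, above the median, and 0 in its other window at chr12:109545148-109545397. The GC box, searched as GGGCGG on both strands, was found in Grb10 a, Plagl1 and Mest and in 32.7% of all windows. The TATA sequence TATAAA, on both strands, was found in Meg3 and in 12.4% of all windows. A match describes the letters only, and neither methylation nor binding at these windows was measured.

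The recovered library sizes were 28.7 to 41.9 M reads, so that 1 read was worth 0.0231 to 0.0348 CPM, the unit of counts scaled to library size. All levels are CPM scaled by TMM, a method that aligns libraries on genes that are mostly stable. Of all genes in the table, 12868 had a mean of at least 1 CPM and were tested with limma. Differences are in log2 of the CPM value plus 1, with their standard error, and a gene is called when its Benjamini-Hochberg adjusted p is under 0.05. Acetate replicate 2 stood apart: 1622 genes lay more than 2 times above or below the mean of replicates 1 and 3, 1588 of them below, in step with the GC content of their transcripts (r = 0.81 across genes, which are not independent). All 6 chondrogenic markers (Sox9, Col2a1, Acan, Matn1, Col9a1 and Comp) were expressed, with a summed level of 9132 to 12117 CPM in control, 4915 to 5705 in acetate and 4360 to 5493 in ethanol, and 4 of them were called lower with acetate and 5 with ethanol. Of 12 markers of other cell types, 9 stayed under 1 CPM in every library and Myod1 had no reads, while the 12 summed to 25.2 to 36.9, 29.4 to 46.2 and 37.0 to 43.6 CPM in the same order. Most of these sums was Tubb3, a neuron marker, at 23.1 to 42.8 CPM. Cd68 reached 1.04 CPM and Pecam1, an endothelial marker, 1.48. Pecam1 was called higher with ethanol once acetate replicate 2 was left out or the trend with GC content was removed, though not as reported. The part of the fall in chondrogenic markers in the changes of the members was not tested. In bulk samples fewer cells of a type cannot be told apart from less RNA per cell.

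The 10 genes split into 5 that were expressed and 5 that were almost silent. Plagl1, Mest, Cdkn1c, Grb10 and Peg3 passed the filter, and H19, Meg3, Rian, Mirg and Dlk1 did not, in a table in which 50.9% of genes fell under it. Per kilobase of exons in control, Cdkn1c stood at 46.1 ± 5.20 CPM (SD, n = 3), Plagl1 at 42.9 ± 5.97 and Mest at 40.9 ± 7.14. These ranges overlapped, so the order of the 3 was not resolved. Grb10 followed at 3.44 ± 0.31 and Peg3 at 1.07 ± 0.38, and their ranges lay apart from each other and from the 3 above.

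Cdkn1c encodes p57, an inhibitor of cyclin-dependent kinases, and lies on chromosome 7 (GRCm38 143458339 to 143461050, minus strand). The control libraries read 106, 90.0 and 86.0 CPM, the acetate libraries 90.8, 89.6 and 81.2, and the ethanol libraries 55.7, 46.1 and 43.4. All 3 ethanol libraries were below all control and all acetate libraries, while control and acetate overlapped. Cdkn1c fell with ethanol by 0.95 ± 0.13, which is 0.519 times the control level (limma adjusted p = 0.0066). With acetate the difference was -0.10 ± 0.13, with a 95% interval of -0.40 to 0.19 (limma adjusted p = 0.67). The direct comparison of the treatments put Cdkn1c higher in acetate by 0.84 ± 0.13 (limma adjusted p = 0.0099). The ethanol call held in 21 of 21 alternatives and the direct one in 18, being lost in a fit of the 6 libraries compared (0.056), without ethanol replicate 2 (0.067) and without ethanol replicate 3 (0.054). Over the alternatives the adjusted p ran from 3.0e-43 to 0.049 for ethanol against control and from 6.1e-22 to 0.067 for the direct comparison. The low ends of all such ranges come from the fit with acetate replicate 2 left out and replicate number as a block. That fit leaves few residual degrees of freedom per gene. Why its p-values were so small was not tested, and they say nothing of strength.

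Grb10, an adaptor protein that binds the insulin and IGF1 receptors and dampens their signal, lies on chromosome 11 (GRCm38 11930508 to 12038683, minus strand). It read 33.1, 28.0 and 32.6 CPM in control, 16.4, 7.91 and 13.5 in acetate and 17.8, 10.9 and 14.5 in ethanol. Every treated library was below every control library, and the treatments overlapped. Grb10 fell by 1.30 ± 0.25 with acetate, to 0.407 times control (limma adjusted p = 0.0495), and by 1.09 ± 0.25 with ethanol, to 0.471 times (0.0464). Between the treatments it differed by -0.21 ± 0.25, with a 95% interval of -0.77 to 0.35.

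Both Grb10 calls were close to the threshold, although the fitted difference stayed between -1.50 and -1.02 (acetate) and between -1.24 and -0.91 (ethanol) over all alternatives. The acetate call held in 8 of 21 alternatives and the ethanol call in 11. Without control replicates 1, 2 and 3 in turn, the limma adjusted p was 0.24, 0.14 and 0.16 for acetate and 0.19, 0.12 and 0.13 for ethanol. Without ethanol replicates 1, 2 and 3 in turn it was 0.077, 0.074 and 0.10 for acetate and 0.072, 0.20 and 0.15 for ethanol. Leaving out acetate replicate 3 gave 0.10 for acetate and 0.055 for ethanol, whereas leaving out acetate replicate 2 gave 0.014 and 0.0015. The ranges over all alternatives were 7.6e-33 to 0.24 and 1.6e-41 to 0.20.

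Plagl1 encodes a zinc finger transcription factor, also called Zac1, that acts on other imprinted genes, and lies on chromosome 10 (GRCm38 13060504 to 13131694, plus strand). Control libraries held 308, 309 and 389 CPM, acetate libraries 249, 99.0 and 237, and ethanol libraries 203, 179 and 246. No treated library reached the lowest control, and acetate replicate 2 was far below the other 2 of its group. Neither difference was called: -0.88 ± 0.32 with acetate (limma adjusted p = 0.25) and -0.68 ± 0.32 with ethanol (0.28). Without acetate replicate 2 the acetate difference was -0.45 ± 0.14 (limma adjusted p = 0.12), while the ethanol difference of -0.68 passed (0.0054), with a standard error of 0.13 in place of 0.32. Over all alternatives the adjusted p ran from 4.6e-10 to 0.54 with acetate and from 9.2e-23 to 0.58 with ethanol.

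Mest, a member of the alpha/beta hydrolase family, lies on chromosome 6 (GRCm38 30723547 to 30748465, plus strand). It read 140, 150 and 193 CPM in control, 106, 73.1 and 119 in acetate and 131, 111 and 126 in ethanol. Again all 6 treated libraries lay under the lowest control, acetate replicate 2 lowest of all. The differences were -0.71 ± 0.19 with acetate (limma adjusted p = 0.13, 95% interval -1.14 to -0.27) and -0.38 ± 0.19 with ethanol (0.32, -0.82 to 0.05). Without acetate replicate 2 they were -0.50 ± 0.13 (0.074) and -0.38 ± 0.12 (0.0465), and over all alternatives the adjusted p ran from 1.5e-11 to 0.37 and from 4.4e-08 to 0.64. The end of Mest overlaps Copg2 on the opposite strand by 912 bases. Copg2 averaged 78.1 CPM over the libraries. The strand setting of the counting was not given, so part of the reads of either gene could belong to the other. Copg2 read 103, 91.3 and 84.8 CPM in control, 101, 48.0 and 72.7 in acetate and 73.5, 66.3 and 61.7 in ethanol. Its ethanol libraries all lay below control, and acetate overlapped control. It was not called with ethanol (-0.46 ± 0.23, limma adjusted p = 0.32) or acetate (-0.39 ± 0.23, 0.43). Its ethanol difference passed when acetate replicate 2 was omitted (0.027) and after correction for GC content (0.037). Sharing of reads was not tested.

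Peg3, a large zinc finger protein of chromosome 7 (GRCm38 6703892 to 6730431, minus strand), read 13.1, 9.84 and 19.9 CPM in control, 9.78, 7.85 and 15.8 in acetate and 11.4, 12.4 and 19.2 in ethanol. All groups overlapped, and replicate 3 was the highest library of each. The difference was -0.33 ± 0.31 with acetate (95% interval -1.01 to 0.36) and 0.02 ± 0.31 with ethanol (-0.66 to 0.71), neither of them called (limma adjusted p = 0.56 and 0.98).

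**Figure D1:**
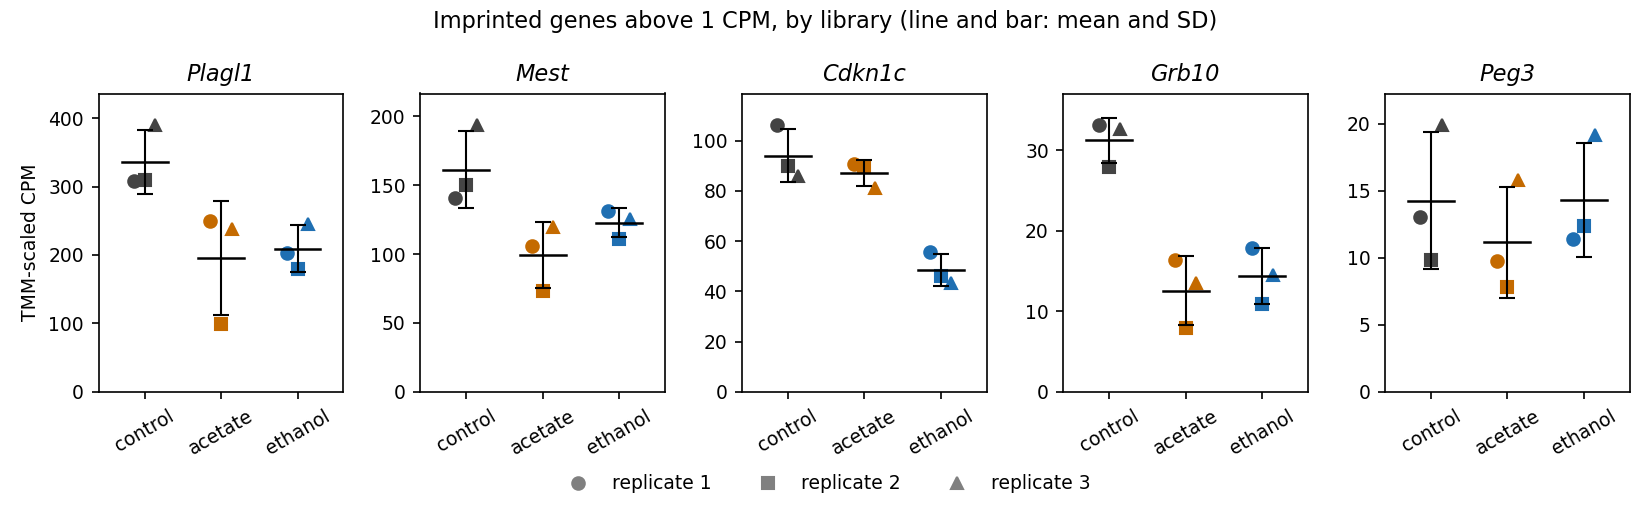
TMM-scaled CPM of the 5 imprinted genes above the filter in the control, acetate and ethanol groups. Marker shape gives the replicate number, and the line and bar give the mean and SD of 3 libraries. Plagl1, Mest and Grb10 were lower in all 6 treated libraries than in any control, and Cdkn1c only in the ethanol libraries.

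Of the 5 tested genes, 1 was called lower with acetate, against 0.497% of all tested genes called lower in that comparison and 1.00% called in either direction. With ethanol 2 were called lower, against 2.45% of all tested genes lower and 3.93% in either direction. In the direct comparison 1 was higher in acetate, against 2.84% of all tested genes higher and 3.73% in either direction. Groups without overlap were more common in the background. With acetate 3 of the 5 genes lay below control in all libraries, against 8.14% of all tested genes, and with ethanol 4 of 5, against 23.3%. The median difference of the 5 was -0.71 with acetate and -0.68 with ethanol, where the median of all tested genes was -0.01 and -0.00084. The treatments share the control libraries, so their values are not independent of each other.

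**Figure D2:**
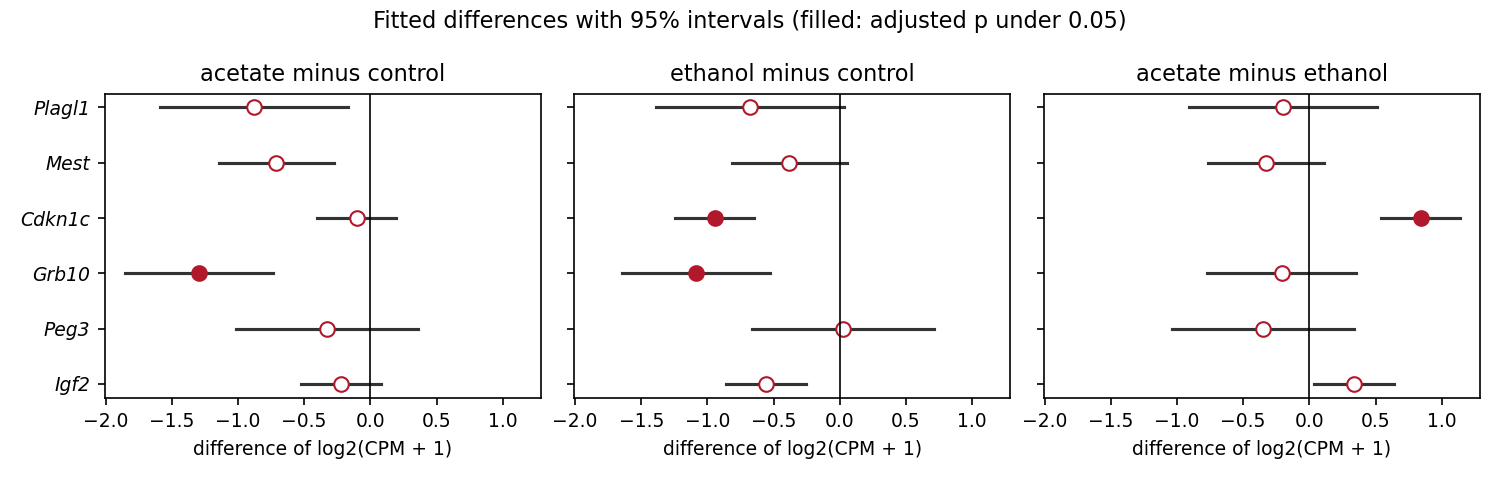
Fitted difference of log2(CPM + 1) with its 95% interval for the 5 tested imprinted genes and Igf2, in 3 comparisons. Filled points have a limma adjusted p under 0.05: Grb10 with acetate, Cdkn1c and Grb10 with ethanol, and Cdkn1c between the treatments.

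Replicate 2 of acetate was low for 4 of the 5 genes. Against the mean of acetate replicates 1 and 3 it differed by -1.29 for Plagl1, -0.83 for Grb10, -0.61 for Mest and -0.61 for Peg3 on the log2 scale, and by 0.06 for Cdkn1c. The transcripts of the first 4 hold 46.4% (Plagl1), 48.5% (Grb10), 47.4% (Mest) and 46.8% (Peg3) GC, and Cdkn1c holds 59.4%. The median difference of 2018 tested genes with 46% to 49% GC was -0.24, so each of the 4 was lower in that library than the typical gene of its GC content. With the trend against GC removed, Grb10 differed by -1.28 with acetate and by -1.09 with ethanol (limma adjusted p = 0.011 for both). Mest then passed with acetate (-0.66, 0.030), and Plagl1 did not (-0.79, 0.085). Cdkn1c with ethanol was -0.93 (0.0046). Removing the trend raised the share of all tested genes called to 5.05% with acetate and 15.9% with ethanol, and leaving out acetate replicate 2 raised it to 3.48% and 21.5%. Removal of the trend moved the calls from 191 higher and 315 lower to 979 and 1066 with ethanol, and in the direct comparison from 366 higher and 114 lower in acetate to 818 and 611.

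**Figure D3:**
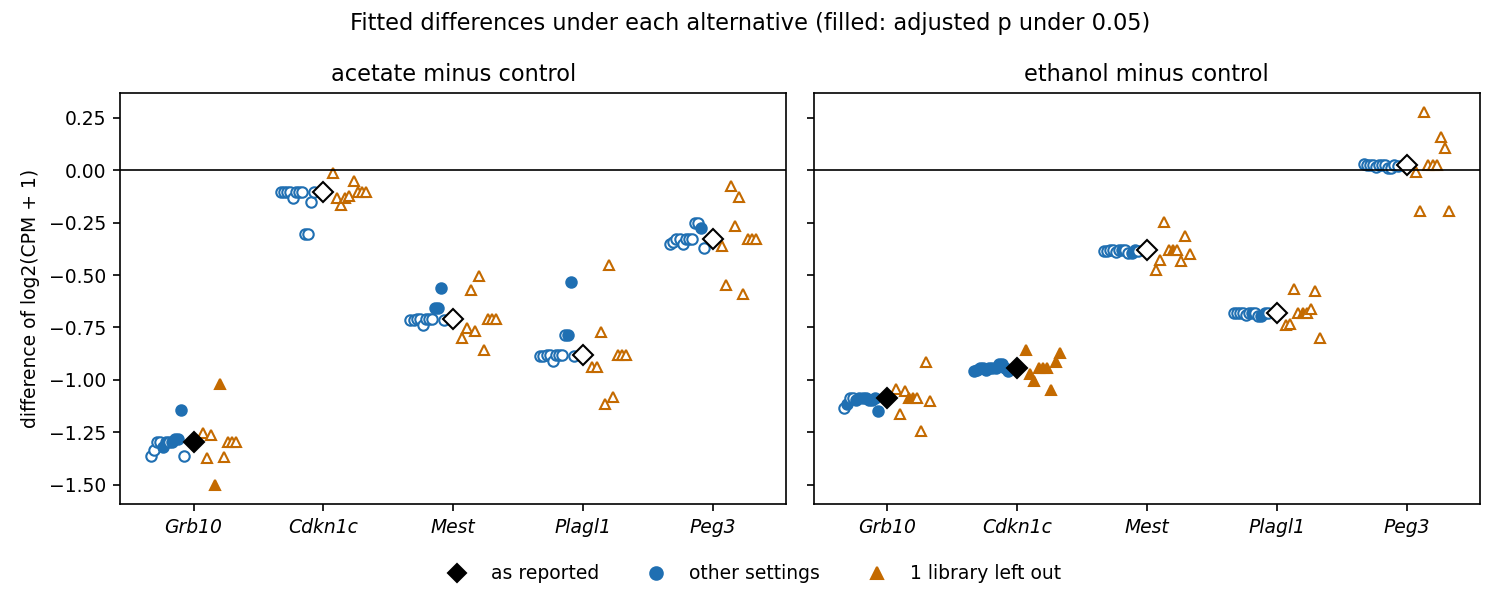
Difference of log2(CPM + 1) of the 5 tested imprinted genes against control under 21 alternatives, with circles for other settings and triangles for 1 library left out; filled markers have an adjusted p under 0.05. Cdkn1c with ethanol was filled throughout, and Grb10 stayed below -0.91 while its call came and went.

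The 5 other members were at or near the limit of detection. A count of 3 reads, taken as the limit that a count of 0 allows in 1 library, corresponds to 0.0692 to 0.104 CPM. Such intervals and limits cover counting error only. H19, a long noncoding RNA that shares an imprinting control region with Igf2 (chromosome 7, GRCm38 142575529 to 142578143, minus strand), had 9, 2 and 6 reads in control, 5, 3 and 0 in acetate and 9, 0 and 3 in ethanol, or 37 in all 9 libraries. Its highest level was 0.255 CPM, and no group stood apart.

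Igf2, the growth factor gene beside H19, read 278, 242 and 290 CPM in control, 252, 217 and 224 in acetate and 196, 156 and 199 in ethanol. Per kilobase of exons in control this was 47.1 ± 4.38 CPM, against 0.064 ± 0.036 for H19. The ethanol libraries were below all control and all acetate libraries. The ethanol difference was -0.55 ± 0.13 and just missed the threshold (limma adjusted p = 0.056), but passed with replicate number taken as a block (0.022), without acetate replicate 2 (0.0077) and with scaling by median of ratios (0.043), in a range of 1.3e-15 to 0.24. With acetate it was -0.22 ± 0.13 (95% interval -0.52 to 0.08).

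Along the 886 kb from H19 to Cdkn1c the table lists 17 genes, of which 6 were tested. Kcnq1ot1, the paternal noncoding RNA that holds the domain around Cdkn1c silent in cis, had at most 0.325 CPM and 43 reads in all libraries. Ascl2 had 3 reads in all, Kcnq1 27, and Th and Ins2 none. Phlda2, a maternally expressed growth restrainer just beyond Cdkn1c, did not exceed 0.174 CPM. Other imprinted neighbours were expressed: Tssc4 read 20.3 to 36.3 CPM, Nap1l4 77.5 to 92.9 and Osbpl5 36.8 to 50.4. Beside Peg3, Usp29 reached 0.330 CPM and Zim1 had 1 read.

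Meg3, Rian, Mirg and Dlk1 lie together on chromosome 12 in the Dlk1-Dio3 domain, where the paternal copy expresses the protein genes Dlk1, Rtl1 and Dio3 and the maternal copy expresses a chain of noncoding RNAs. Dlk1 (GRCm38 109452823 to 109463336), a transmembrane relative of the Notch ligands, had 0, 2 and 5 reads in control, 8, 1 and 3 in acetate and 0, 1 and 1 in ethanol. Meg3 (109541001 to 109571726) had 1 read in all 9 libraries, in control replicate 3. Rian (109603940 to 109661716), a host of small nucleolar RNAs, had 36 reads and at most 0.279 CPM.

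Mirg (109729764 to 109749460), the host of a large microRNA cluster, was the only one of these 4 with at least 5 reads in every library. It read 0.495, 0.383 and 0.635 CPM in control, 0.483, 0.524 and 0.352 in acetate and 0.142, 0.361 and 0.231 in ethanol, from 134 reads in all. The ethanol libraries were all below the lowest control, but acetate replicate 3 lay under ethanol replicate 2, and 25 reads were the most in any library. Mirg was under the filter and was not tested.

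From Dlk1 to Dio3, over 828 kb, the table lists 73 genes. Of these 65 are microRNA or small nucleolar RNA genes and 8 are others. No read was found in any library for 61, all of them microRNA or small nucleolar RNA genes. Each of the 8 others had reads. None of the 73 reached a mean of 1 CPM. The highest value was that of Rtl1, a retrotransposon-derived gene needed in the placenta, at 1.39 CPM in acetate replicate 2. Rtl1 read 0.230, 0.182 and 0.323 CPM in ethanol and 0.389 to 1.29 in control, without overlap, from 211 reads in all. Dio3, a deiodinase that inactivates thyroid hormone, reached 0.220 CPM.

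**Figure D4:**
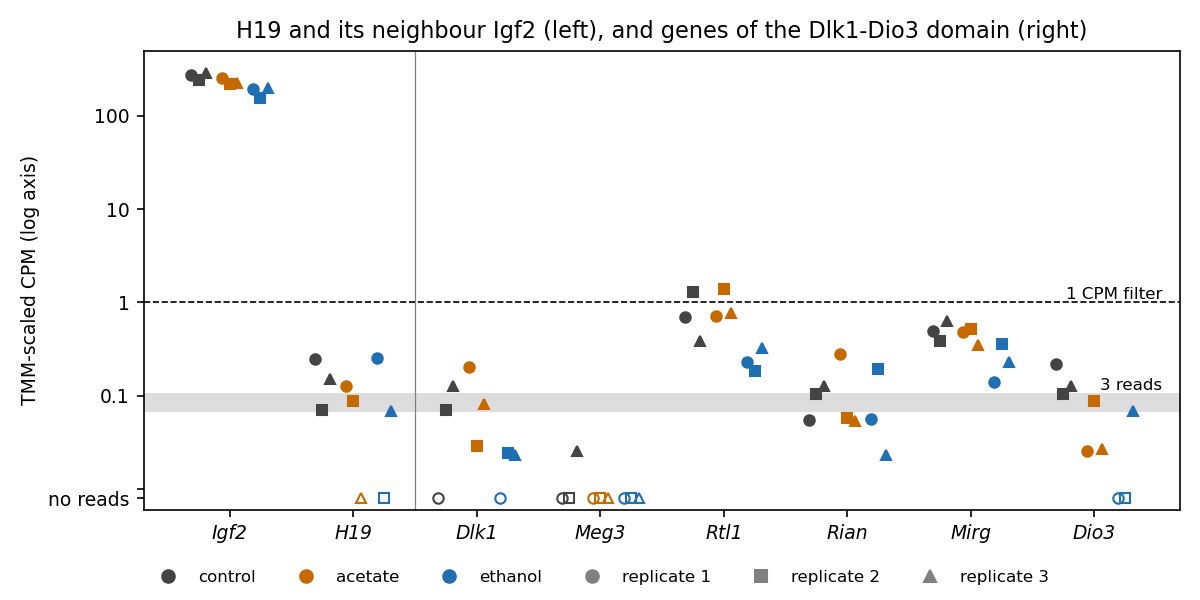
TMM-scaled CPM on a log axis of H19 and its neighbour Igf2 (left) and of genes of the Dlk1-Dio3 domain (right), by group (colour) and replicate (shape), with open markers for no reads. The band marks 3 reads and the dashed line the filter of 1 CPM: Igf2 lay between 156 and 290 CPM, while Meg3 had 1 read in 1 library.

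Genes that act beside the members were followed in lists that were chosen with earlier results of these data known. Around Grb10 and H19, 13 genes of IGF and insulin signalling were tested. With acetate 1 rose, where 0.505% of all tested genes were called higher: Igf2bp2, an RNA-binding protein that binds Igf2 transcripts. It read 18.1, 20.1 and 15.7 CPM in control, 33.9, 33.9 and 29.5 in acetate and 21.2, 26.3 and 19.7 in ethanol, so that acetate lay above both other groups. The difference from control was 0.82 ± 0.14 (limma adjusted p = 0.035, 1.1e-20 to 0.18 over the alternatives) and held in 11 of 21 alternatives. It was lost without control replicates 1, 2 and 3 (0.18, 0.083 and 0.13), acetate replicates 1 and 3 (0.060 and 0.073) and ethanol replicates 1, 2 and 3 (0.076, 0.051 and 0.061). The 10 losses also included a fit of the 6 libraries compared (0.14). None of the 13 was called with ethanol or between the treatments, where 4 and 6 had an unadjusted limma p under 0.05. The share of all tested genes under that p is not given, so such counts, here and below, are not read as a result. With the replicate block Igf2 and Igf2r fell with ethanol, and Igf1r and Igf2bp2 were higher in acetate than in ethanol. Of the 12868 tested genes, 653 and 601 did so. With the GC trend removed 5 were lower with ethanol (Igf1, Igf2, Igf2r, Insr and Nedd4) and 4 higher in acetate than in ethanol. Of all tested genes 1066 and 818 did so. Without acetate replicate 2 the counts in the list were 6 and 3, against 1457 and 736 of all tested genes.

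Around Cdkn1c, 16 other cell cycle genes were tested, most of them inhibitors, G1 cyclins and their kinases. None was called with ethanol by limma, with 1 at an unadjusted p under 0.05. With acetate 2 of the 16 rose, against the 0.505% of all tested genes called higher: Ccnd1 and Ccnd2, cyclins of the D type, which drive G1. The third D-type cyclin gene, Ccnd3, was not called with acetate (0.22 ± 0.16, limma adjusted p = 0.49) or ethanol (-0.35 ± 0.16, 0.28), although every ethanol library lay below every control. It passed with ethanol once the GC trend was removed (0.037) and once acetate replicate 2 was left out (0.017). Ccnd2 read 121, 133 and 120 CPM in control, 212, 213 and 237 in acetate and 145, 156 and 155 in ethanol, with acetate highest and ethanol between, without overlap. It rose by 0.82 ± 0.10 with acetate (limma adjusted p = 0.012, 1.7e-27 to 0.11 over the alternatives) and was higher in acetate than in ethanol by 0.53 ± 0.10 (0.022, 7.1e-13 to 0.11). The first held in 18 of 21 alternatives and was lost without control replicates 1 and 3 (0.11 and 0.077) and in a fit of the 6 libraries compared (0.10). The second held in 16 and was lost without control replicate 1 (0.057), without ethanol replicates 1, 2 and 3 (0.11, 0.10 and 0.089) and with 6 libraries (0.11). Ccnd1 rose with acetate by 0.52 ± 0.10 (limma adjusted p = 0.048, 9.4e-09 to 0.26 over the alternatives) and held in 9 of 21 alternatives. For Ccnd1 the call was lost without control replicates 1, 2 and 3 (0.26, 0.18 and 0.13), acetate replicate 3 (0.13) and ethanol replicates 1, 2 and 3 (0.11, 0.12 and 0.10). The 12 losses also included voom (0.054), a pseudocount of 0.1 (0.051), a filter of 5 CPM (0.066) and the 6 libraries compared (0.25).

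Around Dlk1, 9 of 12 Notch pathway genes were tested. The receptor gene Notch1 read 11.5, 12.4 and 11.9 CPM in control, between 17.6 and 25.5 in acetate and 17.6, 19.5 and 18.9 in ethanol, with every treated library above every control. It rose with ethanol by 0.61 ± 0.14 (limma adjusted p = 0.0485, 1.3e-12 to 0.22 over the alternatives), where 1.48% of all tested genes were called higher. With acetate it missed the threshold at 0.73 ± 0.14 (0.051, 9.0e-09 to 0.26), and none of the 9 was called, with 3 at an unadjusted limma p under 0.05. The Notch1 call with ethanol held in 11 alternatives and was lost in 10. Among the losses were the fits without control replicates 1, 2 and 3 (0.22, 0.14 and 0.12), acetate replicate 1 (0.055) and ethanol replicates 1, 2 and 3 (0.12, 0.21 and 0.17). With replicate number as a block Hes1, a target of Notch signalling, also rose with ethanol (0.61, limma adjusted p = 0.017, against 0.15 without the block). Without acetate replicate 2 both Notch1 differences passed (0.010 with acetate and 0.0012 with ethanol). Notch3 was higher in acetate than in ethanol by 0.77 ± 0.17 (limma adjusted p = 0.038, 1.9e-05 to 0.16 over the alternatives), at levels of 5.12 CPM or less. Its call held in 11 alternatives and was lost in 9. Among the losses were the fits without any 1 of control replicates 1, 2 and 3 (0.077, 0.076 and 0.067), acetate replicate 1 (0.067) and ethanol replicates 1, 2 and 3 (0.15, 0.082 and 0.16).

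Of 12 genes for proteins that write, keep or erase DNA methylation at imprinted domains, among them Dnmt1, Uhrf1, Zfp57 and the erasers Tet1, Tet2 and Tet3, none was called by limma in any of the 3 comparisons, and none had an unadjusted p under 0.05. The same 12 gave no call with voom on the recovered reads, with the replicate block or with the GC trend removed. This did not hold in every alternative. With the GC trend removed and the block together, Dnmt3a was called lower with ethanol (limma adjusted p = 0.044), 1 of 2 alternatives in which it passed. In that setting Dnmt3b was called lower in acetate than in ethanol (0.046). The same setting called many more of all tested genes than the reported fit, as counted below, so these calls are not read as a result. The median difference of the 12 genes was -0.04 with acetate and 0.07 with ethanol.

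Other imprinted genes were followed in the same way. Of 22 genes known for expression from the maternal copy 13 were tested, and of 24 from the paternal copy another 13. None passed by limma as reported or by voom in any comparison, but with ethanol this depended on the setting. With ethanol 3 of the maternal and 6 of the paternal genes had an unadjusted limma p under 0.05, and with acetate 0 and 1. The share of all tested genes under that p is not given, so these counts are not read as a result. Blocking on replicate number, 7 of them passed with ethanol, against 8.35% of all tested genes. With ethanol 10 passed once the GC trend was removed, against 15.9% of all tested genes. Leaving out acetate replicate 2 gave 10 as well, against 21.5%. Of those called with the block Igf2r, the receptor that clears IGF2 (-0.41), Gnas (-0.45), Snrpn (-0.66), Rasgrf1 (-1.05), Snurf and Igf2 fell. Peg10, a retrotransposon-derived gene, rose (0.79). In the direct comparison 4 passed with the block, against 6.40% of all tested genes: Rasgrf1 (1.04), Snrpn (0.62) and Snurf were higher in acetate and Peg10 lower (-0.92). Snurf lies inside Snrpn on the same strand, so these counts hold that locus more than once.

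For each tested member, the genes outside these lists with the most similar levels over the 9 libraries were ranked by Pearson r of log2(CPM + 1), as a description. Grb10 was most like Grb14 (0.99) and Zfp385b (0.99), Cdkn1c like Rbp4 (0.99) and Ptgis (0.98), and Plagl1 like Ldlrad3 (0.99) and Mtus1 (0.98). Mest was most like Adgrg2 (0.97) and Lgr5 (0.95), and Peg3 like Pag1 (0.98) and Rbm4b (0.98). Among the members themselves, Plagl1 with Mest (0.92), Plagl1 with Grb10 (0.89) and Grb10 with Mest (0.88) were alike, and Cdkn1c was not like Mest (0.06) or Plagl1 (0.21). The 9 libraries share group differences and acetate replicate 2, so these values carry no test.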

How the data were processed

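Messenger RNA was measured in 9 libraries, 3 per group. The authors deposited 1 table of log2 values, TMM-normalised counts by its title. The submitters' processing notes name Partek, Bowtie2 2.2.5, STAR 2.7.8a and mm10, without roles; the sources used here do not give annotation or strand setting. Each library had its own floor value for genes with no reads; subtracting it gave TMM-scaled CPM, and the floor also gave the library sizes. Between 86.2% and 87.9% of values of 1 to 20 reads were whole within 0.02 read, so the table was not treated as counts.

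Genes averaging at least 1 CPM were fitted as log2(CPM + 1) with limma 3.58.1 (R 4.3.3; tables in Python 3.11.15 with pandas 2.3.3): 1 mean per group, 1 variance per gene over 9 libraries, mean trend, Benjamini-Hochberg adjustment over all tested genes. The pseudocount understates changes of low genes. Simulated data with 200 changed genes were used to test the procedure. The GC trend was removed per library by lowess (span 0.3). Other alternatives covered pseudocount, filter, scaling, variance model, voom on recovered reads, the libraries fitted and leaving out each library. Positions, exon lengths and GC content came from GENCODE for GRCm38.

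Replicate numbers come from the labels. Deviations from group means correlated between same-numbered libraries at 0.55, 0.36 and 0.67 (ethanol and control) and at 0.15, 0.25 and 0.61 (acetate and ethanol). The numbers were taken as pairs there, less clearly for acetate and ethanol. In that comparison acetate replicate 2 with ethanol replicate 1 gave 0.18, above the 0.15 of replicate 1. The p-values given as reported come from the fit without the block. With the replicate block the genes called rose from 506 to 1074 and from 480 to 823.

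Members, lists, tests and alternatives were chosen with earlier results of these data known. Named were all members, fixed neighbours in their domains, list genes past the threshold, and the 2 most similar genes per tested member of at least 5 CPM. Gnas, Igf2r, Snrpn, Snurf, Rasgrf1, Peg10, Igf1r, Igf1, Insr, Nedd4, Hes1, Jag1, Ccnd3, Tssc4, Nap1l4, Osbpl5, Ascl2, Kcnq1, Th and Ins2 were named outside this rule after their values were seen.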

Additional observations from a re-analysis of the deposited data

How the results depend on the processing

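Cdkn1c with ethanol kept its direction and call in all 21 alternatives, and Grb10 kept its direction against control in all 21 while its call did not hold. Members past the threshold with acetate (1 as reported) were 0 with a pseudocount of 0.1 or 0.5, no filter, a filter of 5 CPM, the 6 libraries compared alone and voom, 2 with the GC trend removed, 3 with that and the replicate block, 4 with acetate replicate 2 left out and the block, and 0 to 1 with 1 library left out. With ethanol (2) they were 1 with a pseudocount of 0.1, no filter or a filter of 5 CPM, 4 with 6 libraries, with the GC trend removed and the block or with acetate replicate 2 left out and the block, and 1 to 4 with 1 library left out. In the direct comparison (1) they were 0 with 6 libraries, 2 with acetate replicate 2 left out and the block, and 0 to 1 with 1 library left out.

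Genes past the threshold with acetate (129) were 67 with no filter, 52 with a filter of 5 CPM, 20 with 6 libraries, 293 with the replicate block (a shared number only, since same-numbered acetate and control libraries correlated at 0.25, -0.10 and 0.41), 650 with the GC trend removed, 2252 with that and the block, 2773 with acetate replicate 2 left out and the block, and 0 (without control replicate 3) to 448 (without acetate replicate 2). With ethanol (506) they were 283 with a filter of 5 CPM, 3443 with 6 libraries, 1074 with the block, 2045, 4624 and 6466 under the last 3 settings, and 98 (without control replicate 1) to 2766 (without acetate replicate 2). In the direct comparison (480) they were 307, 107, 823, 1429, 3921 and 4262 in that order, and 103 (without ethanol replicate 2) to 1108 (without acetate replicate 2). Adding the block to the reported fit changed no call of a member. Added to the fit with the GC trend removed, it gained Plagl1 with acetate (0.085 to 0.017) and, with ethanol, Plagl1 (0.068 to 0.014) and Mest (0.083 to 0.022) by limma adjusted p. The last setting leaves few degrees of freedom and gave very small p-values for a reason that was not tested. Its counts are therefore no measure of strength.

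Reversals of direction were listed for the tested members, Igf2, Igf2bp2, Ccnd1, Ccnd2, Notch1 and Notch3. Among these genes, direction reversed only for differences near 0 that were not called as reported: acetate minus ethanol for Grb10 (0.067 without acetate replicate 2, in a range of -0.41 to 0.067 with 1 library left out), for Plagl1 (0.23 without that library, range -0.43 to 0.23, and 0.15 with the block as well) and for Notch1 (-0.073 with the GC trend removed, with or without the block, -0.030 without acetate replicate 2 and -0.0029 with the block as well), and ethanol minus control for Peg3 (-0.0085, -0.20 and -0.19 without control replicate 1, control replicate 2 and ethanol replicate 3, range -0.20 to 0.28). Other genes could reverse too: Igf1, acetate minus ethanol, was -0.017 as reported and 0.55 with the GC trend removed (limma adjusted p = 0.024). The cause was not tested. H19, Meg3, Rian, Mirg and Dlk1 lay under the filter and were not tested as reported.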
